A study of Mus musculus with 12 samples.

Results

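Levels of 10 genes that are widely used as readouts of glucocorticoid action were followed in mouse T-cell leukemia after a single in vivo exposure to dexamethasone. They were Fkbp5, Tsc22d3, Dusp1, Sgk1, Zbtb16, Errfi1, Mt1, Mt2, Tle3 and Rhob, and all 10 were found by symbol among the 38339 gene identifiers of the expression table. The study sequenced total RNA from bone marrow of recipient mice that carried 1 of 6 primary leukemias of the T lineage (T-ALL), which arise from immature T cells. Each leukemia contributed 1 vehicle-treated recipient (VEH) and another that received the synthetic glucocorticoid dexamethasone (DEX), with collection 4 hours after treatment, so that 6 VEH and 6 DEX libraries formed 6 pairs. In the labels the leukemias have these codes: 73A-46B is called leukemia 1 here, 73M-19A is leukemia 2, 78A-143B is leukemia 3, 2M-127B is leukemia 4, 20M-116B is leukemia 5 and JW-81-59B is leukemia 6. All libraries are labelled as C57BL/6 x 129Sv/Jae F1 in strain, and the recipients were moribund when they were treated. Red cells were lysed before extraction and the leukemia cells were not sorted, so each library holds whatever other marrow cells were left. Each arm of a leukemia is 1 mouse, and leukemias are the replicates (n = 6).

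Glucocorticoids cross the cell membrane and bind the glucocorticoid receptor, a transcription factor held in the cytoplasm by chaperones. The bound receptor moves to the nucleus, where it binds DNA as a dimer at palindromic glucocorticoid response elements and also acts through other DNA-bound factors. The genes it switches on include brakes on its own signal, such as Fkbp5, and brakes on inflammatory and growth signalling, such as Tsc22d3 (also called GILZ), Dusp1 and Errfi1. In immature T cells and many lymphoid leukemias the same receptor leads to cell death, which is why dexamethasone is a core drug in the treatment of lymphoblastic leukemia.

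Some of these genes carry known types of regulatory element close to their starts, and stretches of promoter before the start that bear them are shown. Windows from 250 bases before to 50 bases after each RefSeq transcript start were searched on both strands (GRCm38.p6). The table of windows gave 17 for 9 of the 10 genes. In each sequence the capitals mark the matched letters, and position -1 is the base just before the start. The first is a stretch of an Sgk1 promoter (chr10:21993681-21993735, plus strand) with the full palindrome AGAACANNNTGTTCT from -189 to -175. The second, of Mt2 (chr8:94172375-94172594, plus strand), has 3 metal response elements, TGCGCNC or TGCACNC on either strand, whose first bases are at -223, -128 and -50. The third, of Mt1 (chr8:94178975-94179081, plus strand), has a relaxed palindrome, GNACANNNTGTNC, from -94 to -82 and a metal response element at -23. The last 2, of Dusp1 (chr17:26508588-26508635, minus strand) and Errfi1 (chr4:150854999-150855046, plus strand), each have the cAMP response element TGACGTCA, which ends at -136 in Dusp1 and at -44 in Errfi1. The stretches of Sgk1, Dusp1 and Errfi1 precede transcript starts that lie inside the bounds of the annotated gene. That of Errfi1 is in 1 of its 2 windows.
Sgk1: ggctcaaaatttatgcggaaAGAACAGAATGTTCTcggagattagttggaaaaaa
Mt2: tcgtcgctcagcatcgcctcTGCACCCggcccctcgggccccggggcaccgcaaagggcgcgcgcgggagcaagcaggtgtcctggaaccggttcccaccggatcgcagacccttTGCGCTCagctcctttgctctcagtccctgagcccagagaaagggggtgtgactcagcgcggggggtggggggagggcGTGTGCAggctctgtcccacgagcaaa
Mt1: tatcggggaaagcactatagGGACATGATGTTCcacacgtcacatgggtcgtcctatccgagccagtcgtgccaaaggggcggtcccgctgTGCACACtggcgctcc
Dusp1: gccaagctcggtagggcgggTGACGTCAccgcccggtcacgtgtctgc
Errfi1: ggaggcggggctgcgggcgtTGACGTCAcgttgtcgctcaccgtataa

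Full palindromes are rare in such windows. Of 32851 windows in the RefSeq table, 3 (0.00913%) held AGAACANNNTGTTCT, and the only one among the 17 windows of these genes was 1 of the 6 windows of Sgk1. The relaxed palindrome was in 0.475% of all windows and, among these genes, in the windows of Sgk1, where it is the core of the same site, and of Mt1. The cAMP response element was in 1.79% of all windows. The short motifs were common: TGCGCNC was in 15.4% of windows, TGCACNC in 12.6%, and TGTTCT, 1 arm of the palindrome, in 19%. Among these genes TGCGCNC was in windows of 5, namely Mt1, Mt2, Sgk1, Rhob and Dusp1, and TGCACNC in those of Mt1 and Mt2. Metal response elements were thus not particular to the metallothioneins. A match is a description of the letters. The windows of Fkbp5, Tsc22d3 and Dusp1 had neither palindrome, which says nothing of sites outside them.

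Levels are given as FPKM, a read-pair count divided by gene length and by the library's mapped total, as the authors deposited them. FPKM summed to 1466471 to 2019058 per library, and 11778 to 12970 genes were at 1 FPKM or more. The file gives no counts, and in 11 libraries the value of 1 fragment put the depth at about 11700000 to 35500000 fragments. The VEH library of leukemia 2 gave no clear estimate. All 12 T-lineage markers examined passed the expression filter, and their summed level was 3006 to 5140 FPKM in VEH and 2704 to 4926 FPKM in DEX libraries. Of the 12, 0 rose and 4 fell with DEX in the test described below, beside 4.27% higher and 9.28% lower of all tested genes. The 4 were Cd5 (-0.82), Cd3g (-0.33), Cd2 (-0.33) and Lck (-0.29), on the log2 scale. Granulocyte markers (15 genes) were also high, with sums of 2351 to 9164 FPKM in VEH and 1539 to 5540 FPKM in DEX libraries, lower with DEX in 5 of 6 leukemias. That difference averaged -0.59 ± 0.75 on the log2 scale (SD, n = 6; exact sign-flip p = 0.125). The sums rest mostly on S100a8 and S100a9, with VEH means of 1709 and 1510 FPKM, followed by Ngp at 319 FPKM. Of the 15 genes, 0 rose and 2 fell (Ltf and Cebpe), beside 4.27% higher and 9.28% lower of all tested genes. Monocyte sums were lower with DEX in 5 of 6 leukemias (exact sign-flip p = 0.0938) and sums of stromal and megakaryocyte markers in 6 of 6, by -0.25 ± 0.16 (SD; exact sign-flip p = 0.03125). In these unsorted samples a smaller share of a cell type and less RNA per cell cannot be told apart.

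Changes were tested as paired differences on log2(FPKM + 1), DEX minus VEH within each leukemia, in limma over all 12358 genes that reached 1 FPKM in at least 6 of 12 libraries. A gene was called at an adjusted p under 0.05, and errors of differences are standard errors unless given as SD. Of the 10 genes, 8 were tested. Fkbp5, Tsc22d3 and Dusp1 rose, 0 fell, and Sgk1, Mt1, Mt2, Tle3 and Rhob did not pass. Among all tested genes, 4.27% were called higher and 9.28% lower, 13.6% in all. The 10 genes were chosen with earlier results of these data known, so setting them beside these shares is a description. The median difference was 0.58 for the 8 tested genes and -0.05 for all tested genes, whose 5th and 95th percentiles were -0.47 and 0.38. Ranked by difference among the 12358 genes, Tsc22d3 was 68th, Fkbp5 107th, Dusp1 111th, Mt2 206th, Mt1 547th, Rhob 904th, Sgk1 3679th and Tle3 4972nd.

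**Figure D1:**
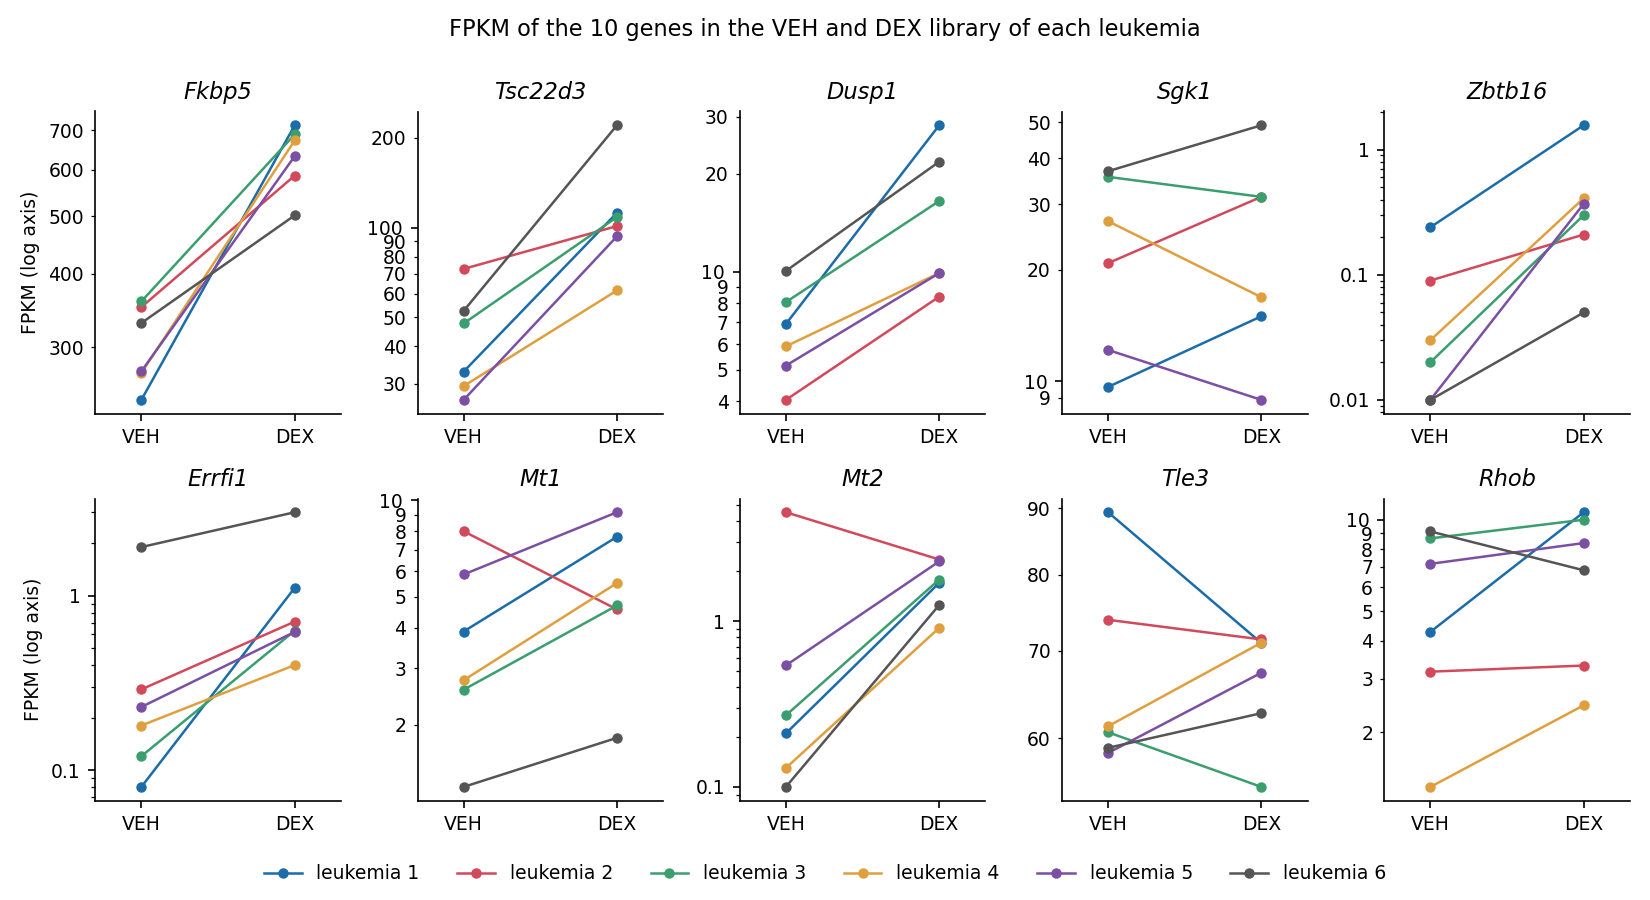
FPKM of each of the 10 genes in every library on a logarithmic axis, with a line joining the VEH and DEX library of each leukemia. All 6 lines slope upward for Fkbp5, Tsc22d3, Dusp1, Zbtb16 and Errfi1, whereas for Sgk1 and Tle3 3 of 6 lines do.

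Fkbp5 encodes a co-chaperone of Hsp90 that lowers the affinity of the glucocorticoid receptor for its ligand, a negative feedback on the hormone. It lies on chromosome 17 (GRCm38, 28399094 to 28517527, minus strand). In the VEH libraries of leukemias 1 to 6 it stood at 244.19, 350.86, 358.73, 271.33, 273.02 and 329.72 FPKM, and in the matching DEX libraries at 713.95, 586.53, 688.80, 672.72, 632.79 and 502.11 FPKM. Every DEX library was above every VEH library, which none of the other tested genes of the set showed and which held for 0.388% of all tested genes. The mean rose from 305 ± 47.9 to 633 ± 78.1 FPKM (SD, n = 6 each), a log2 difference of 1.06 ± 0.12 (adjusted p = 0.00179, limma). The ratio of DEX to VEH was 1.52 in leukemia 6, the lowest, and 2.92 in leukemia 1, the highest.

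Tsc22d3 encodes a leucine zipper protein that restrains NF-κB and AP-1 and is induced by glucocorticoids in most lymphoid cells. The gene is on the X chromosome (140539528 to 140600659, minus strand). Its VEH levels in leukemias 1 to 6 were 32.88, 72.68, 47.69, 29.40, 26.43 and 52.56 FPKM, and its DEX levels 112.16, 101.20, 108.46, 61.57, 93.48 and 220.46 FPKM. It was higher with DEX in 6 of 6 leukemias, as were 5.97% of all tested genes, while 13.7% were lower in 6 of 6. The groups overlapped, since the VEH library of leukemia 2 was above the DEX library of leukemia 4. The mean went from 43.6 ± 17.6 to 116.2 ± 54.2 FPKM (SD, n = 6 each), and the log2 difference was 1.38 ± 0.19 (adjusted p = 0.00355, limma). With 1 FPKM added this was the widest of the 8 tested genes, while with 0.1 FPKM added Mt2, at 1.79, was wider. The DEX to VEH ratio ran from 1.39 in leukemia 2 to 4.19 in leukemia 6. Leukemia 6 therefore had the smallest ratio for Fkbp5 and the largest for Tsc22d3.

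Dusp1 encodes a nuclear phosphatase that inactivates the MAP kinases p38, JNK and ERK. It lies on chromosome 17 (26505590 to 26562128, minus strand). It stood at 6.91, 4.04, 8.07, 5.90, 5.15 and 10.06 FPKM in VEH and 28.22, 8.39, 16.51, 9.92, 9.91 and 21.80 FPKM in DEX libraries of leukemias 1 to 6. All 6 leukemias were higher with DEX, and the VEH level of leukemia 6 exceeded the DEX levels of leukemias 2, 4 and 5. The mean rose from 6.69 ± 2.16 to 15.8 ± 7.94 FPKM (SD, n = 6 each), a log2 difference of 1.04 ± 0.15 (adjusted p = 0.00408, limma). The ratio was 4.08 in leukemia 1, the highest, and 1.68 in leukemia 4, the lowest. Without the leukemia block in the fit, Tsc22d3 (adjusted p = 0.0577) and Dusp1 (adjusted p = 0.136) lost the call. Dusp1 is also an immediate-early gene that handling and stress can raise, so 17 genes of that class were read beside it. Of these, 11 were tested, 0 were higher and 1 was lower, Ier2, a small nuclear early-response protein, by 0.33 on the log2 scale (adjusted p = 0.0446, limma). Counts of 0 and 1 among 11 are near the shares of 4.27% and 9.28% over all tested genes. Jun did not pass (0.38, adjusted p = 0.286, limma), yet it rose by 1.28 in leukemia 1 and by 1.13 in leukemia 6. It was higher with DEX in 4 leukemias and lower in 2. Egr1, at -0.65 (adjusted p = 0.14, limma), was lower in 6 of 6 leukemias and did not pass. Fos (0.04) and Junb (-0.06) did not pass either. The summed level of the 17 genes was 104.8 to 195.6 FPKM in VEH and 82.6 to 192.9 FPKM in DEX libraries. Btg2 alone stood at 34.4 to 86.7 FPKM in VEH and 26.2 to 122.1 FPKM in DEX libraries. The part of handling or stress in the level of Dusp1 was not tested.

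Errfi1 encodes MIG6, an inhibitor of the EGF receptor family. It was almost silent in these samples, at 0.08, 0.29, 0.12, 0.18, 0.23 and 1.90 FPKM in VEH and 1.11, 0.71, 0.63, 0.40, 0.62 and 3.01 FPKM in DEX libraries of leukemias 1 to 6. It was above its own VEH value in 6 of 6 leukemias, by 0.50 on average on the log2 scale (exact sign-flip p = 0.03125, unadjusted, the smallest that 6 pairs allow). Only 3 of 12 libraries reached 1 FPKM, so the gene was not in the test across genes. When genes of any level were tested, its adjusted p was 0.0572 (limma). The 2 libraries of leukemia 6 were its highest in each arm.

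Sgk1 encodes a kinase that regulates ion channels and FoxO factors, and its promoter is a textbook glucocorticoid target. The gene lies on chromosome 10 (21882184 to 21999903, plus strand), and it is the one with the full palindrome, in 1 of its 6 windows. Its FPKM is a single value for the whole gene, which has 13 annotated transcripts. The level from the start beside the palindrome is therefore not shown by these values. The VEH levels of Sgk1 in leukemias 1 to 6 were 9.64, 20.81, 35.58, 27.01, 12.13 and 36.86 FPKM, and its DEX levels were 14.96, 31.44, 31.42, 16.83, 8.89 and 49.05 FPKM. Leukemias 1, 2 and 6 were higher with DEX and leukemias 3, 4 and 5 were lower, by up to 0.65 on the log2 scale in leukemia 4. The means were 23.7 ± 11.5 and 25.4 ± 14.7 FPKM (SD, n = 6 each), and the log2 difference was 0.05 ± 0.17 with a 95% interval of -0.34 to 0.44 (adjusted p = 0.859, limma). The interval leaves out a mean rise as large as the one of Fkbp5, Tsc22d3 or Dusp1, although differences of either sign in single leukemias were wide.

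Rhob encodes a small GTPase of endosomes that early stress and growth signals raise. Its levels were 4.27, 3.16, 8.67, 1.32, 7.15 and 9.14 FPKM in VEH and 10.57, 3.31, 9.99, 2.45, 8.37 and 6.81 FPKM in DEX libraries of leukemias 1 to 6. In 5 of 6 leukemias Rhob was higher with DEX, and in leukemia 6 it was lower. Only leukemia 1 showed a log2 difference above 1, at 1.13, and the mean difference of 0.29 ± 0.17 did not pass (95% interval -0.09 to 0.68, adjusted p = 0.281, limma). Without leukemia 1 it was 0.13.

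Tle3 encodes a Groucho-type corepressor. It was a strongly expressed gene, at 89.36, 73.92, 60.62, 61.27, 58.45 and 58.98 FPKM in VEH and 70.94, 71.40, 55.05, 71.00, 67.34 and 62.70 FPKM in DEX libraries. Leukemias 1, 2 and 3 were lower with DEX and leukemias 4, 5 and 6 higher. The means were 67.1 ± 12.3 and 66.4 ± 6.48 FPKM (SD, n = 6 each), and the 95% interval of the log2 difference, -0.19 to 0.18, was the narrowest of the set (adjusted p = 0.985, limma).

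Zbtb16 encodes PLZF, a zinc finger transcription factor of innate-like T cells that rises with glucocorticoids in many tissues. Its values were 0.24, 0.09, 0.02, 0.03, 0.01 and 0.01 FPKM in VEH and 1.57, 0.21, 0.30, 0.41, 0.37 and 0.05 FPKM in DEX libraries of leukemias 1 to 6. The DEX library was above its pair in 6 of 6 leukemias, with a mean log2 difference of 0.42 (exact sign-flip p = 0.03125, unadjusted). Just 1 library, DEX of leukemia 1, reached 1 FPKM. The VEH values corresponded to an estimated 1.16 to 13.95 fragments in the 5 libraries with an estimate, against 4.72 to 170.34 in the DEX libraries, so the size of the difference is poorly fixed and no ratio is given. With genes of any level tested, the adjusted p was 0.151 (limma).

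**Figure D2:**
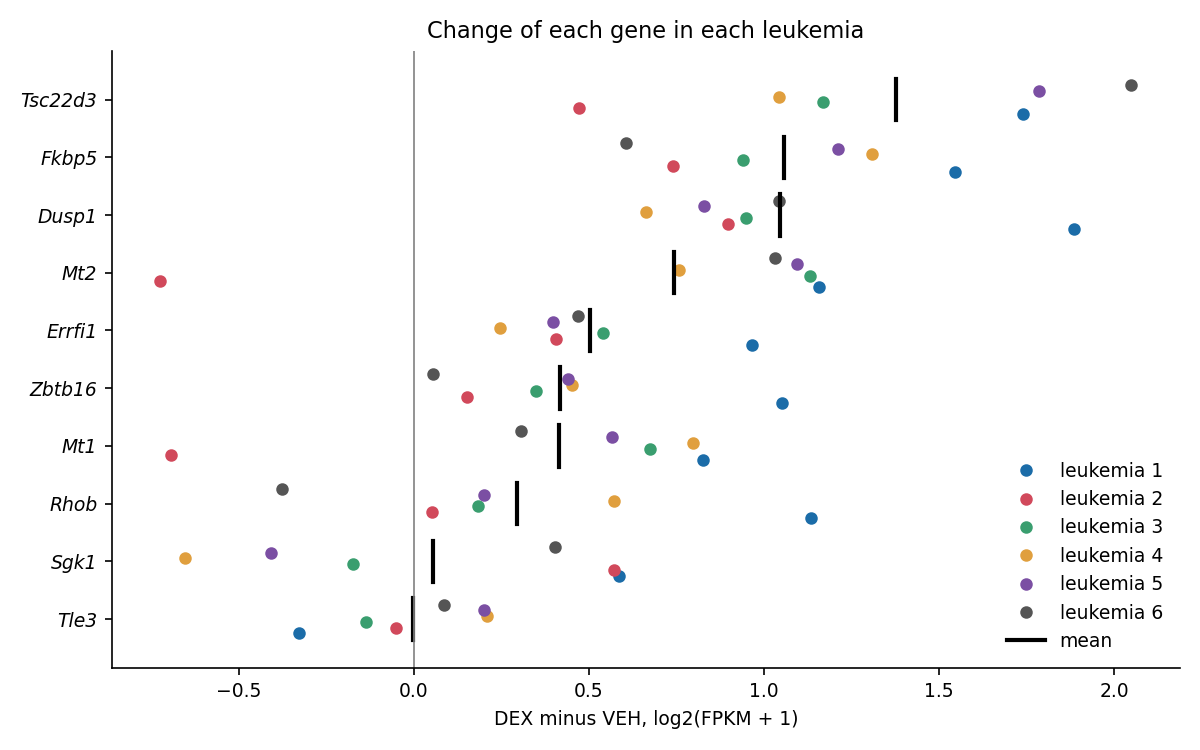
Log2 difference, DEX minus VEH on log2(FPKM + 1), of each of the 10 genes, with a point for each of the 6 leukemias and a bar at the mean. All 6 points of Fkbp5, Tsc22d3 and Dusp1 lie above 0, those of Mt1 and Mt2 lie above 0 except for leukemia 2, and those of Sgk1 and Tle3 fall on both sides.

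Mt1 and Mt2 encode metallothioneins, small cysteine-rich proteins that bind zinc and copper and answer both to metals and to glucocorticoids. They are neighbours on chromosome 8 (Mt2 at 94172664 to 94173568 and Mt1 at 94179082 to 94180327, both on the plus strand), with starts 6418 bp apart. Mt1 stood at 3.90, 8.0, 2.57, 2.75, 5.87 and 1.28 FPKM in VEH and 7.69, 4.57, 4.70, 5.52, 9.17 and 1.82 FPKM in DEX libraries of leukemias 1 to 6. Mt2 stood at 0.21, 4.53, 0.27, 0.13, 0.54 and 0.10 FPKM in VEH and 1.70, 2.35, 1.78, 0.91, 2.29 and 1.25 FPKM in DEX libraries. Both were higher with DEX in leukemias 1, 3, 4, 5 and 6 and lower in leukemia 2, where the VEH library was the highest of its arm for each.

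Over all 6 leukemias neither metallothionein passed the test. The log2 difference of Mt1 was 0.41 ± 0.19 (95% interval -0.02 to 0.84, adjusted p = 0.18, limma), and the difference of Mt2 was 0.74 ± 0.24 (0.20 to 1.29, adjusted p = 0.0742, limma). Mt2 entered the test through its DEX libraries, since 5 of them and 1 VEH library reached 1 FPKM. Its VEH values corresponded to an estimated 0.85 to 6.92 fragments in the 5 libraries with an estimate, and its DEX values to 8.59 to 18.5 fragments, so no ratio is given. Without leukemia 2 the differences were 0.63 ± 0.11 for Mt1 (adjusted p = 0.0139) and 1.03 ± 0.12 for Mt2 (adjusted p = 0.00448) by limma, with 2.9% of genes called higher. Leaving out the leukemia in which both genes were lower favours that test, so these values describe the other 5 pairs. The VEH library left out was also the only one of that arm with Mt2 at 1 FPKM.

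The VEH library of leukemia 2 also stood apart in other marrow markers. Its summed erythroid markers were 1229 FPKM, against 9.47 to 335 FPKM in the other VEH libraries and 153 FPKM in its DEX partner. Its B-lineage markers summed to 57.3 FPKM, against 2.11 to 17.6 FPKM in the other VEH libraries and 10.6 FPKM in its partner. Its granulocyte sum of 4655 FPKM was the second highest of the arm, and its partner's was 1703 FPKM. The part of these cells in the levels of Mt1 and Mt2 was not tested. With a term for the granulocyte sum in the fit, added after seeing the data, Mt1 was 0.72 (adjusted p = 0.0806) and Mt2 1.04 (adjusted p = 0.0819) by limma, still short of the threshold, and Fkbp5, Tsc22d3 and Dusp1 remained called at 1.17, 1.35 and 0.98.

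Genes of metal handling were read beside the metallothioneins, from a list of 8 of which 7 were tested. Of the 7, 1 rose and 3 fell, beside 4.27% higher and 9.28% lower of all tested genes. The list was chosen with earlier results of these data known, so the counts describe it and are no test of it. Slc30a1, the zinc exporter ZnT1 that like the metallothioneins is a target of the metal sensor Mtf1, rose by 0.87 ± 0.19 (adjusted p = 0.0218, limma). Its VEH levels were 0.58, 0.99, 1.21, 0.62, 2.13 and 0.78 FPKM and its DEX levels 4.66, 2.76, 2.05, 2.63, 3.31 and 1.27 FPKM in leukemias 1 to 6, higher with DEX in all 6, leukemia 2 included (0.92). Like Mt2 it entered the test through its DEX libraries, since 6 of them and 2 VEH libraries reached 1 FPKM. Slc39a10 and Slc39a6, zinc importers of the ZIP family, fell. Slc39a10 fell by 1.1 ± 0.16 on the log2 scale (adjusted p = 0.00437, limma), from 21.4 ± 10.2 to 8.91 ± 2.69 FPKM (SD, n = 6 each), and every DEX library was below every VEH library, as for 1.34% of tested genes. Slc39a6 fell by 0.59 ± 0.09 (adjusted p = 0.00499, limma), and Txnrd1, a thioredoxin reductase, fell by 0.40 ± 0.07 (adjusted p = 0.00871, limma). Mtf1 itself, Hmox1 (haem oxygenase) and Gclm (a glutathione synthesis subunit) did not pass, with differences of 0.03, 0.11 and 0.03.

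**Figure D3:**
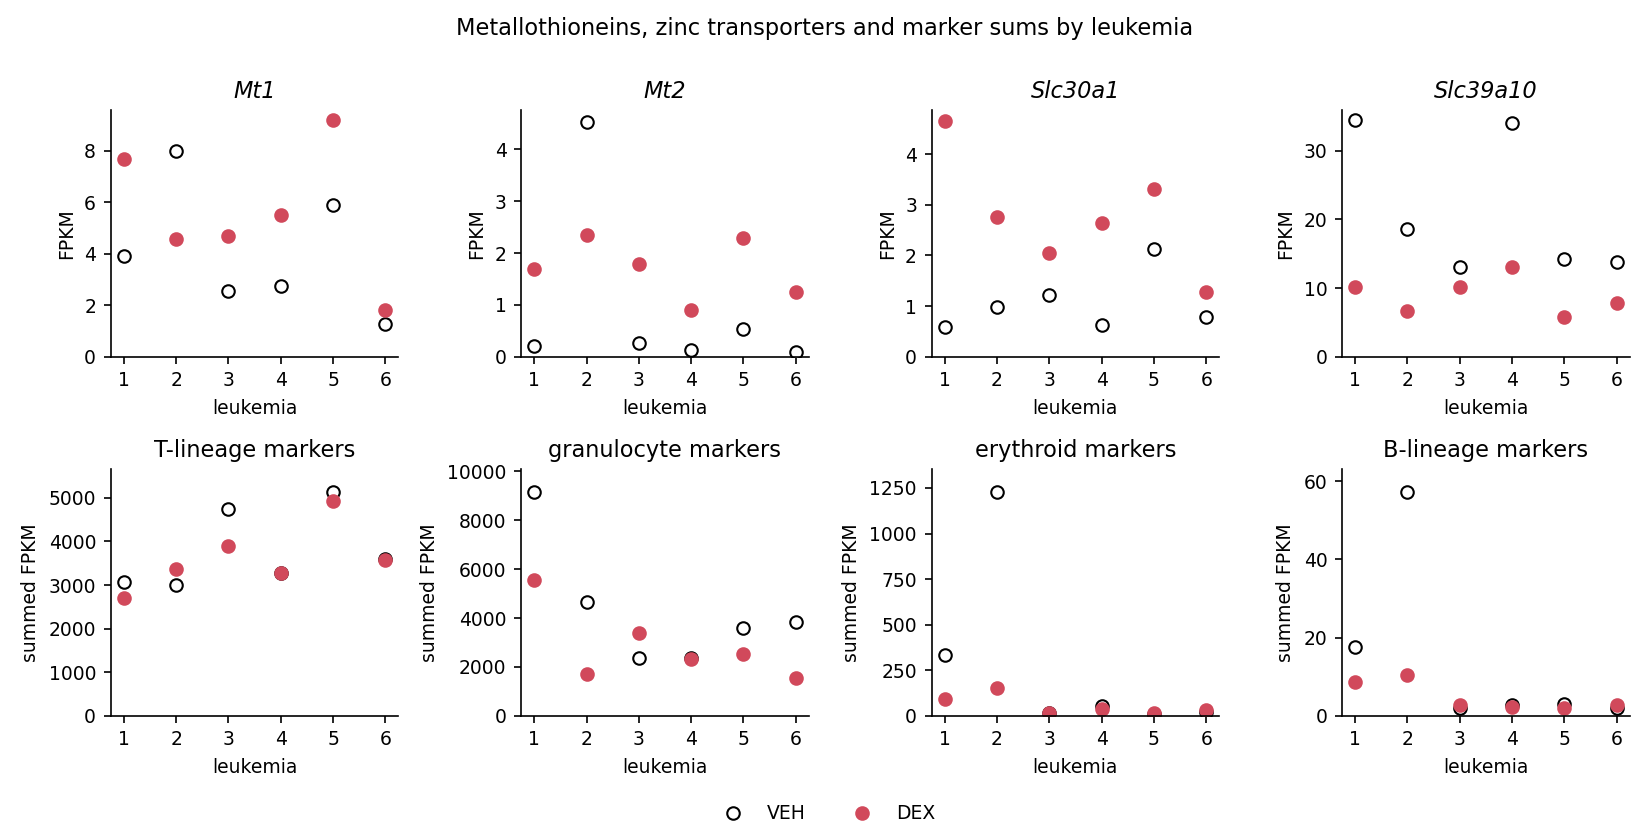
FPKM of Mt1, Mt2 and the zinc transporters Slc30a1 and Slc39a10 (upper panels) and summed FPKM of markers of 4 cell types (lower panels) by leukemia, with open points for VEH and filled points for DEX libraries. In leukemia 2 the DEX point is below the VEH point for Mt1 (4.57 and 8.0 FPKM) and Mt2 (2.35 and 4.53 FPKM), while Slc30a1 is higher with DEX in all 6 leukemias and Slc39a10 lower.

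The genes differed widely in level before any drug. Ordered by their VEH medians, Fkbp5 (301 FPKM) was followed by Tle3 (60.9), Tsc22d3 (40.3), Sgk1 (23.9), Dusp1 (6.41), Rhob (5.71), Mt1 (3.33), Mt2 (0.24), Errfi1 (0.205) and Zbtb16 (0.025), all in FPKM. Fkbp5 was above Tle3 in 6 of 6 VEH libraries with ranges that did not overlap. The ranges of all other neighbours in that order overlapped. Dusp1 and Rhob, and Rhob and Mt1, kept their order in 4 of 6 VEH libraries, as did Mt2 and Errfi1. In the DEX libraries the order was the same except that Tsc22d3, at a median of 104.8 FPKM, stood above Tle3, at 69.1 FPKM, in 5 of 6 leukemias.

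Levels of several of the genes also differed between leukemias. The limma F test for differences between leukemias passed for 5 of the 8 tested genes, while it passed for 51.1% of all tested genes. These were Sgk1 (adjusted p = 0.00381), Rhob (0.00442), Dusp1 (0.0132), Mt1 (0.0180) and Tsc22d3 (0.0458). Fkbp5 (0.763), Tle3 (0.117) and Mt2 (0.0756) did not pass. Sgk1 was lowest in leukemias 1 and 5 in both arms and highest in leukemia 6. Rhob was lowest in leukemia 4 in both arms, and Mt1 was lowest in leukemia 6 in both arms.

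The SD of the 6 log2 differences was 0.36 for Fkbp5, 0.59 for Tsc22d3, 0.43 for Dusp1, 0.54 for Sgk1, 0.57 for Mt1, 0.73 for Mt2, 0.51 for Rhob and 0.21 for Tle3, against a median of 0.24 and a 90th percentile of 0.48 over all tested genes. Tle3 alone of the 8 was below that median. On log2(FPKM + 1), leukemia 1 had the largest difference for 6 of the 8 tested genes, and the exceptions were Tsc22d3, largest in leukemia 6, and Tle3, largest in leukemia 4. By the ratio of DEX to VEH it was largest for 4 of the 8, since the largest ratios of Mt1 and Mt2 were in leukemias 4 and 6. That count is poorly fixed. The Mt1 ratio was 2.01 in leukemia 4 and 1.97 in leukemia 1, and the Mt2 ratios rest on few fragments. On log2(FPKM + 1), leukemia 1 had the largest difference in 16.6% of all tested genes and in 28.2% of the 528 genes called higher.

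The descriptions of the DEX libraries of leukemias 2, 5 and 6 lack a suffix that the other 9 descriptions carry, so the response was also compared between these sets. The response in leukemias 2, 5 and 6 minus that in leukemias 1, 3 and 4 was -0.41 for Fkbp5 (adjusted p = 0.415, limma), -0.71 for Mt1 (0.389) and -0.67 for Rhob (0.375). None of the 8 tested genes passed in this comparison, where the lowest adjusted p was 0.375. The share of all tested genes that passed it is not given here, so the count is no result about these 8. In leukemias 1, 3 and 4 alone, Fkbp5, Tsc22d3, Dusp1, Mt1 (0.77, adjusted p = 0.0162) and Mt2 (1.02, adjusted p = 0.0253) were called higher, with 3.14% of all genes. In leukemias 2, 5 and 6 alone, Fkbp5 (0.85), Tsc22d3 (1.43) and Dusp1 (0.92) were called higher, with 188 of all 12358 genes. Mt1 stood at 0.06 and Mt2 at 0.47 in that set, where leukemia 2 was lower and leukemias 5 and 6 were higher. In that order the differences were -0.69, 0.57 and 0.31 for Mt1 and -0.72, 1.095 and 1.03 for Mt2. Leukemia 2 is not among leukemias 1, 3 and 4, which favours the calls of Mt1 and Mt2 there. Its VEH library was the only one of that arm with Mt2 at 1 FPKM. In leukemias 1, 3 and 4 Mt2 was therefore in the test through its DEX libraries, with VEH levels of 0.21, 0.27 and 0.13 FPKM. What the suffix stands for is not given in the sources used here.

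Close relatives of the responding genes were read as a comparison, 1 per family. Fkbp4, the other large Hsp90-bound immunophilin, which acts on the receptor in the opposite sense to Fkbp5, fell by 0.49 on the log2 scale (adjusted p = 0.0187, limma). The change of Fkbp5 exceeded that of Fkbp4 by 1.54 ± 0.43 (SD, n = 6), in 6 of 6 leukemias. Tsc22d4 differed by -0.07 and did not pass, and the change of Tsc22d3 exceeded it by 1.44 ± 0.58 (SD) in 6 of 6 leukemias. Both contrasts had the smallest exact sign-flip p that 6 pairs allow, 0.03125, which adjusted over the 7 pairs tested was 0.109. Dusp1 exceeded Dusp2, a phosphatase of the same class, by 0.65 ± 0.52 in 5 of 6 leukemias (exact p = 0.0625, adjusted 0.146).

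Mt1 minus Mt2 was -0.33 ± 0.31 (SD; exact p = 0.125, adjusted 0.219). At the low level of Mt2 that contrast depended on the pseudocount, and it was -0.62 with 0.5 and -1.28 with 0.1 FPKM added. The remaining contrasts were Rhob minus Rhoa 0.33 ± 0.49 (exact p = 0.1875, adjusted 0.263), Sgk1 minus Sgk3 0.18 ± 0.98 (exact p = 0.656) and Tle3 minus Tle4 0.18 ± 0.40 (exact p = 0.344, adjusted 0.401). Tle4 was too low to be tested, at means of 0.73 FPKM in VEH and 0.50 FPKM in DEX libraries. Its contrast with Tle3 was 0.39 with 0.1 FPKM added and 0.02 after scaling to a fixed sum per library (TPM). Across 17 tested relatives of these families, 0 were higher and 3 were lower, beside 4.27% and 9.28% of all tested genes. The 3 were Fkbp4 and the MAP kinase phosphatases Dusp4, which fell by 0.65 (adjusted p = 0.0129, limma), and Dusp10, which fell by 0.36 (adjusted p = 0.0376, limma). The other dual-specificity phosphatases tested, Dusp2 (0.39), Dusp5 (-0.37) and Dusp6 (-0.12), did not pass.

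**Figure D4:**
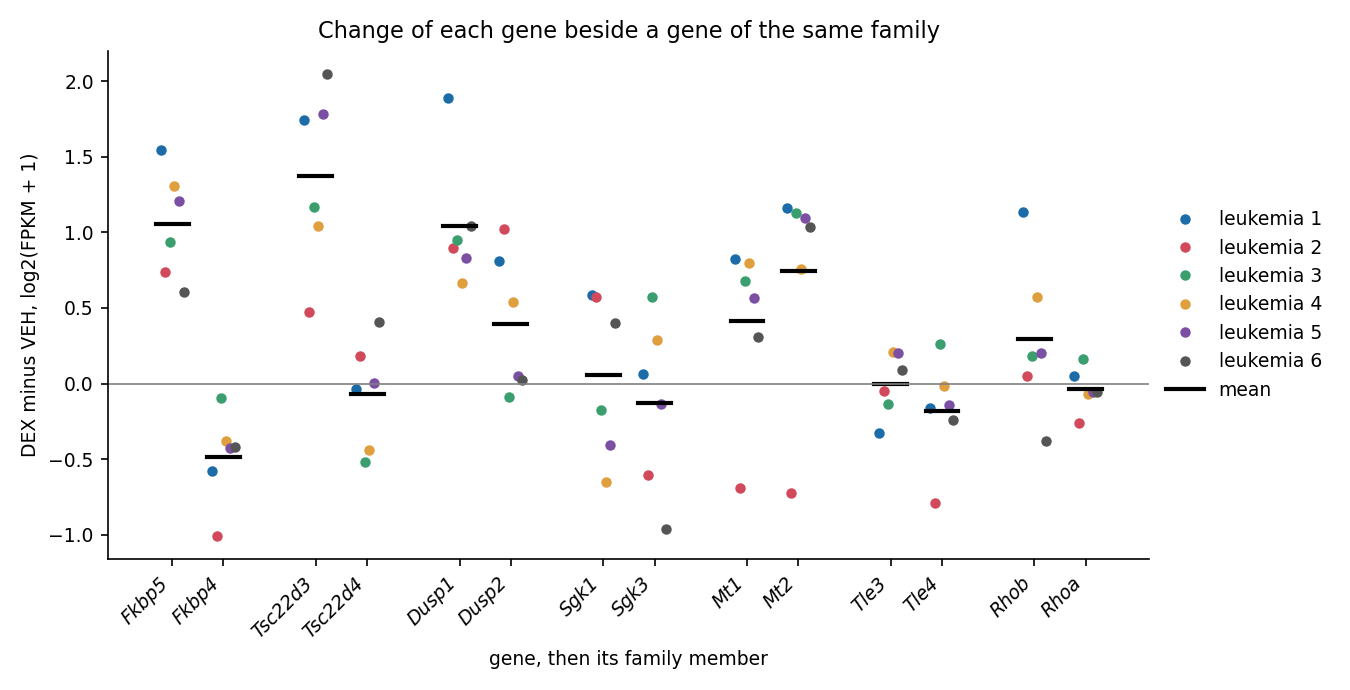
Log2 difference, DEX minus VEH, of each gene and of its relative on log2(FPKM + 1), with points for the 6 leukemias and bars for means. Fkbp5 stands above Fkbp4 and Tsc22d3 above Tsc22d4 in every leukemia, whereas Sgk1 and Sgk3 and Tle3 and Tle4 intermix.

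The receptor itself was among the genes that rose. Nr3c1, which encodes the glucocorticoid receptor, was higher by 0.69 (adjusted p = 0.00163, limma), Hsd11b1, the enzyme that regenerates active glucocorticoid from its inert form, fell by 0.68, and Nr3c2, the mineralocorticoid receptor, did not pass at 0.04.

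A further 34 genes known as glucocorticoid-induced in one tissue or another were read in the same fit. Of 26 tested, 9 rose, 1 fell and 16 did not pass, with a median difference of 0.15, beside 4.27% higher and 9.28% lower of all tested genes. This list was chosen with earlier results of these data known, so the counts describe it and are no test of it. Ddit4, an inhibitor of mTORC1, rose by 1.69, and its VEH levels of 22.5 to 72.4 FPKM all lay below its DEX levels of 110.5 to 175.9 FPKM. Txnip, an inhibitor of thioredoxin and glucose uptake, rose by 1.51, and Bcl2l11, the death protein BIM, by 1.18. The groups of both did not overlap. Il1r2, a decoy receptor for interleukin-1, rose by 1.33 ± 0.24 (adjusted p = 0.00942, limma), although leukemia 6 moved only from 1.21 to 1.36 FPKM. Tnfaip3, the NF-κB inhibitor A20, rose by 1.0 ± 0.24 (adjusted p = 0.0273, limma), most in leukemia 6, where it went from 24.46 to 146.49 FPKM.

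Pik3ip1, an inhibitor of PI3 kinase, rose by 0.79, Glul, glutamine synthetase, by 0.77 (adjusted p = 0.0209, limma), Nfkbia, the inhibitor of NF-κB, by 0.67 and Sesn1, a stress-induced inhibitor of mTORC1, by 0.52. Glul was higher in 5 of 6 leukemias and went from 4.65 to 4.09 FPKM in leukemia 6. Angptl4, a lipase inhibitor that glucocorticoids raise in fat and liver, fell by 0.79 ± 0.12 (adjusted p = 0.00479, limma) and was lower with DEX in 6 of 6 leukemias. Per1, a clock gene, did not pass (0.87, adjusted p = 0.176, limma), since its level went from 2.53 to 36.08 FPKM in leukemia 6 and differed by less than 1 on the log2 scale in the others. Anxa1, which encodes the anti-inflammatory protein annexin A1, had a difference of -0.58 and did not pass (adjusted p = 0.0915, limma). Of the 8 genes too low to be tested, Klf9, Pdk4 and Tat were above their VEH pair in 6 of 6 leukemias at levels of at most 1.27 FPKM. Some of these steps were very small, such as 0 to 0.01 FPKM for Tat in leukemia 4. Tgm2 was lower with DEX in 5 leukemias and Cebpd in 4, while Klf15, Cd163 and Hif3a were each higher in 4. The share of genes this low that were higher in 6 of 6 is not given here, so the count is no result about these genes.

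**Figure D5:**
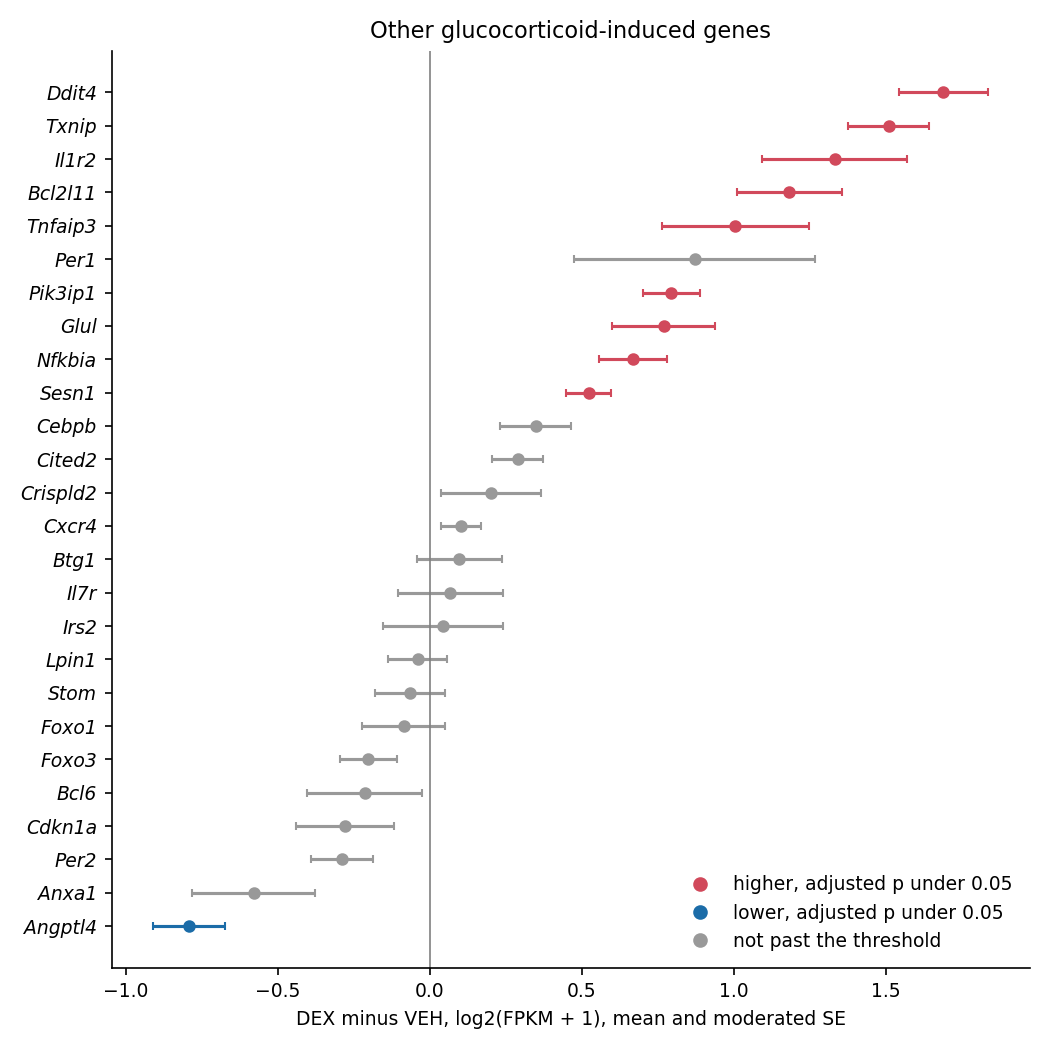
Log2 difference, DEX minus VEH, on log2(FPKM + 1) of the 26 tested further glucocorticoid-induced genes, as the mean with its moderated standard error, red for genes called higher, blue for lower and grey for those that did not pass. Values run from a rise of 1.69 for Ddit4 to a fall of 0.79 for Angptl4.

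Across all 12 libraries the genes whose log2 levels most resembled each of these were recorded as a description, by Pearson's r over libraries that share leukemia and treatment effects. Tsc22d3 was most like Pik3ip1 (r = 0.93) and Serac1 (0.91), Fkbp5 most like Gm15747 (0.94) and Fam69b (0.93), and Dusp1 most like P2ry12 (0.90) and Sh3rf1 (0.82). Sgk1 was most like Rtl8a and Csad (both 0.95). Mt2 was most like Igkv6-17 (0.93), an immunoglobulin segment, and Mt1 like Gm15472 and Nfatc3 (both 0.93). Rhob was most like Ufl1 and Ints6l (both 0.91), and Tle3 like A330032B11Rik and Tyr (both 0.89).

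Some of these genes overlap others, and whether the authors' counting used strand is not given in the sources used here. Dusp1 overlaps Ergic1 on the opposite strand, which differed by -0.02 (adjusted p = 0.876, limma). Fkbp5 overlaps among others the small RNA model Gm22146, which differed by 0.57 (adjusted p = 0.0605, limma). Errfi1 overlaps 1700045H11Rik, which was listed at 0, and Mt2 overlaps the antisense model Gm45774, which was not analysed here. Mt1 and Mt2 share no exact stretch longer than 20 bases between their main transcripts, against reads of 100 bases.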

How the data were processed

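The authors deposited 1 table of FPKM for 12 libraries. Libraries were stranded, from total RNA, and read from both ends at 100 bases, per the labels. Bowtie2 (version 2), RSEM, edgeR and the build mm10 are named per the submitters' processing notes, and their roles, the annotation and the strand setting are not given in the sources used here. Groups came from the labelled treatment and pairs from the leukemia code in the titles. After removal of group means, same-leukemia libraries correlated across genes at 0.55 to 0.82 and others at up to 0.21.

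FPKM were analysed as log2(FPKM + 1) for genes at 1 FPKM or more in at least 6 of 12 libraries. limma 3.58.1 (R 4.3.3) was fitted over 12358 genes with a leukemia block and a mean-dependent prior, two-sided, with Benjamini-Hochberg adjustment over all of them and a threshold of 0.05. The procedure was tested on simulated data. Exact tests flip the signs of the 6 within-leukemia differences. The genes and lists were chosen with earlier results of these data known, and the named genes are the 10 genes and list members past the threshold, plus those needed to show that a list member did not pass, the genes most like each of the 10 and genes that overlap them. There were 19 alternatives planned and 2 added after seeing the data.

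For depth, FPKM times length was computed in sparse genes, and its most frequent value was taken as 1 fragment. Loci came from GENCODE M21 on GRCm38, which matched 37607 of 38339 identifiers, and promoter windows from RefSeq on GRCm38.p6.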

Additional observations from a re-analysis of the deposited data

Results flagged for a closer look

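In 30 groups of 6 values (VEH levels, DEX levels and log2 differences of the 10 genes), 9 had a library or leukemia far from the others by Dixon's test, where chance gives about 1 in 20 groups. The levels were examined as FPKM, not on the log2 scale, and the chance rate is for normally distributed values. Since FPKM can be skewed, the number of flags above that rate has no clear meaning. Levels and differences of a gene are not independent, so these 9 are not separate findings. Leukemia 1 stood apart in Zbtb16, at 0.24 FPKM with VEH and 1.57 FPKM with DEX, and in the log2 difference of Dusp1, 1.885. Leukemia 2 stood apart in the VEH level of Mt2, 4.53 FPKM, and in the log2 differences of Mt1 (-0.6922) and Mt2 (-0.7231), the only leukemia with a negative difference for either gene. Leukemia 6 stood apart in Errfi1, at 1.90 FPKM with VEH and 3.01 FPKM with DEX, and in the DEX level of Tsc22d3, 220.5 FPKM. Without leukemia 1 the log2 difference of Dusp1 was 0.88, and without leukemia 6 that of Tsc22d3 was 1.24, and both passed.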

How the results depend on the processing

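Fkbp5 rose under all 21 alternatives, and Tsc22d3 and Dusp1 under all but the fit without the leukemia block, where adjusted p was 0.0577 and 0.136 (limma). No gene of the set was called lower under any of the 21, with 6 to 10 of the genes tested in each. The count of 3 called higher became 1 without the replicate block, 5 in leukemias 1, 3 and 4 alone and 5 without leukemias 2 and 6 (added after seeing the data), and was 3 to 5 when each leukemia was left out in turn. The 5 came with leukemia 2 left out and held Mt1 and Mt2, of which Mt2 was tested there through its DEX libraries. Mt2 was also called with a pseudocount of 0.1 (1.79, adjusted p = 0.0364), and its adjusted p ran from 0.00448 to 0.46 over its alternatives. Genes called higher (528) were 268 after scaling to TPM, 181 with no filter, 35 without the replicate block, 188 in leukemias 2, 5 and 6 alone, 236 with a term for the label suffix, 238 with a granulocyte term (added) and 233 to 532 with a leukemia left out, fewest without leukemia 5. Genes called lower (1147) were 1844, 370, 46, 257, 282 and 396 in those settings, 523 in leukemias 1, 3 and 4 alone and 425 to 1042 with a leukemia left out. The 9 further glucocorticoid-induced genes called higher were 4 without the block and 4 in leukemias 2, 5 and 6 alone. The 1 called lower, Angptl4, became 0 where genes under a mean of 5 FPKM were left out and 0 without the block, and the count was 1 to 2 with a leukemia left out. The 5 genes that differed between leukemias became 3 with no filter, 3 without genes under a mean of 5 FPKM and 3 to 5 with a leukemia left out, 3 without leukemia 6. The cause of these shifts was not tested. Scaling moved the median difference of all tested genes from -0.05 to -0.16 (TPM), and the share of changed genes that were higher from 31.5% to 12.7% (TPM) or 44.7% (median of ratios). With a pair left out the sign-flip test cannot go below 0.0625. The low levels of Mt2, Errfi1 and Zbtb16 limit the precision of their differences.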
